A study of Mus musculus with 20 samples.

Results

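Hes7 and 9 genes that lie around the circadian gene Per1 on mouse chromosome 11 were followed across 20 RNA-seq libraries. The members were taken by name and position: Hes7, Aloxe3, Alox12b, Alox8, Vamp2, Tmem107, Borcs6, Aurkb, Ctc1 and Pfas, 10 of the 55421 transcripts in each table. Per1 served as the reference. Hes7 is a bHLH repressor of the segmentation clock, the oscillator that times somite formation in the presomitic mesoderm, and it represses its own transcription in a delayed feedback loop downstream of Notch. Per1 is a core circadian repressor that CLOCK and BMAL1 (the product of Arntl) switch on through E-box elements. Both genes are transcribed in the same direction and are neighbours on the chromosome.

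Mouse cells of 2 kinds were compared: embryonic stem cells (ESC, line KY1.1) and colonies of induced presomitic mesoderm (iPSM) grown from E14TG2a stem cells that carry a luciferase reporter under the Hes7 promoter. In each, tetO-Clock/Bmal1 lines and tetO-Clock/Bmal1DN lines were sequenced with and without doxycycline (dox), which switches on the transgenes, and so was a control line, labelled with genotype control (in iPSM, the reporter line without transgene). ESC received 500 ng/mL for 6 hours and iPSM colonies 1000 ng/mL for 2 hours. Each transgene group held 2 clones: 1 and 7 (Clock/Bmal1) and 5 and 6 (Clock/Bmal1DN) in ESC, and 12 and 20 and then 7 and 19 in iPSM. The control group held 1 library with and 1 without dox per cell type. Clones of 1 parental line are the replicates, so p-values measure the spread between clones. Cell type cannot be told apart from parental line, reporter, dose and time of treatment.

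Libraries held 40.3 M to 57.3 M counts in ESC and 38.2 M to 47.8 M in iPSM. The untreated iPSM control library stood apart, with counts over 69.4% of transcripts against 43.8% to 54% in the other libraries. It was in neither arm of any contrast below, but it was filtered and scaled together with the other libraries for the fits. The correlations with Hes7 also include it. Summed over 12 presomitic mesoderm markers, levels were 967 to 1835 CPM (counts scaled by the library total) in iPSM and 22.6 to 78.3 CPM in ESC, and over 10 pluripotency markers 249.8 to 466 CPM and 1660.3 to 2336 CPM. No listed marker was at 0 throughout. In these bulk samples fewer cells of a type and less RNA per cell cannot be told apart.

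Dox raised the induced genes in the Clock/Bmal1 clones. In ESC, Arntl went from 45.3 to 2202 CPM in clone 1 and from 48.2 to 4134 CPM in clone 7, and with Clock/Bmal1DN from 54.6 to 1615 CPM in clone 5 and from 44.4 to 4066 CPM in clone 6. In iPSM, Arntl went from 56.5 to 3215 CPM in clone 12 and from 77.4 to 4701 CPM in clone 20. In the Clock/Bmal1DN clones it went from 41.8 to 888 CPM in clone 7 but only from 66.0 to 153 CPM in clone 19, so that clone carried a much smaller induction. Clock rose in both of these (112 to 1023 and 107 to 1057 CPM). The iPSM control line stayed at 20.8 and 20.0 CPM of Arntl.

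Along the plus direction the genes run Pfas (minus strand), Ctc1, Aurkb, Borcs6, Tmem107, Vamp2, Per1, Hes7, Aloxe3, Alox12b and Alox8 (minus strand). Per1 (ENSMUST00000021271.13) spans chr11:69098948-69109960 (mm10, as for the other positions of genes). Hes7 (ENSMUST00000024543.2, 4 exons) spans chr11:69120404-69124055, 10.44 kb beyond the end of Per1. Aloxe3 (ENSMUST00000021268.8, 15 exons) spans chr11:69125896-69149115 and begins 1.841 kb beyond the end of Hes7. On the other side, Vamp2 ends 6.564 kb before Per1 begins. Counts were taken over whole gene bodies, introns included. An opposite-strand transcript, 9130213A22Rik, covers 2186 bases of the Hes7 body and runs on outside it. Its own counts came to 0.765% of those of Hes7 in iPSM and to 19.0% in ESC, and whether the counting used strand is not given in the sources used here.

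The promoters of Per1, Hes7 and Ctc1 are shown. Per1 rose with Clock/Bmal1, and Hes7 is its next neighbour downstream. Among the members whose promoter was matched, Ctc1 is the one with the same E-box as Per1. Each stretch runs from 250 to 51 bases before the RefSeq start (GRCm38.p6), 5′ to 3′. Capitals mark the E-box CACGTG, the N-box CACNAG, bound by HES repressors, and the Rbpj-type motif TGGGAA, of the Notch pathway, on either strand; no 2 matches overlapped.
Per1, chr11:69098699-69098898, plus strand: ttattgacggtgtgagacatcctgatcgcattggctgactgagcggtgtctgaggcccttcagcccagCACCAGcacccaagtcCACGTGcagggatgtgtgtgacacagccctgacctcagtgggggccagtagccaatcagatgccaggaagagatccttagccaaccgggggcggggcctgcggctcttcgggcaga
Hes7, chr11:69120203-69120402, plus strand: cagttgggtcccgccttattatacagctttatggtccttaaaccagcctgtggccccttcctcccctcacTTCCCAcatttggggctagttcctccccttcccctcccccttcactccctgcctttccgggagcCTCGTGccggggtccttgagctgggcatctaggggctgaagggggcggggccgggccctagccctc
Ctc1, chr11:69015661-69015860, plus strand: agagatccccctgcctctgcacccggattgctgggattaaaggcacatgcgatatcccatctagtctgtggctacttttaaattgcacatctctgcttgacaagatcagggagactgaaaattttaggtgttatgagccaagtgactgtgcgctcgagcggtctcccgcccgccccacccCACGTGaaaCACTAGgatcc
Positions are counted from the start, with bases before it negative. Per1 (first of its RefSeq starts) held CACGTG at position -166 and Ctc1 at position -70. The Hes7 stretch held no CACGTG, but an N-box at position -116 and a TGGGAA match at position -180, both on the minus strand. Of 32851 promoters of 300 bases, 7.15% held CACGTG, 42.5% CACNAG and 25.6% TGGGAA. RefSeq entries were matched for 6 of the 10 members. Beside Ctc1, none of the other 5 matched members (Hes7, Alox12b, Alox8, Tmem107 and Borcs6) held CACGTG in its window. Aloxe3, Vamp2, Aurkb and Pfas had no matched entry, so their promoters were not searched. A match is a description of letters.

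In untreated cells Hes7 was the member that differed most between the cell types. Per gene-body length it stood at 0.0231 ± 0.0138 RPKM (SD, n = 4 clones; reads scaled by gene-body length and by library total) in ESC and at 4.33 ± 1.51 RPKM in iPSM. The 4 ESC clones held 9, 4, 2 and 3 Hes7 counts, and the 4 iPSM clones 378, 898.5, 655 and 923.5 counts. All 4 iPSM clones lay far above all ESC clones (log2 difference 7.40 ± 0.466 SE, 169-fold, edgeR adjusted p = 6.11e-09). Whether the transcript of the luciferase reporter in the iPSM lines carries Hes7 sequence that would be counted to Hes7 is not given in the sources used here, so every iPSM level of Hes7, and this fold, may include reads of the reporter. Clone 12 was the low one in iPSM, at 2.13 RPKM against 4.56 to 5.43 RPKM in the other 3.

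The lipoxygenase genes downstream of Hes7 were at the bottom of the order in both cell types, joined in ESC by Hes7, whose range (0.0127 to 0.0435 RPKM) overlapped that of Alox8 (0.00667 to 0.0304 RPKM). Aloxe3 and Alox12b encode epidermal lipoxygenases of the skin barrier, and Alox8 a further arachidonate lipoxygenase. Aloxe3 stood at 0.138 ± 0.0409 RPKM in ESC and 0.0368 ± 0.0122 RPKM in iPSM (SD, n = 4), and was lower in iPSM (log2 difference -2.12 ± 0.351, edgeR adjusted p = 9.06e-05). Alox12b held 18 counts over the 4 untreated ESC clones and 2 over the 4 iPSM clones, a ratio of 7.98 (exact 95% counting interval 1.91 to 70.9). Alox8 held 61 and 11 counts (4.92, interval 2.57 to 10.4). Both intervals cover counting error alone. The untreated control lines, outside these sums, held 15 (ESC) and 11 (iPSM) counts of Alox12b. Of Alox8 they held 0 (ESC) and 10 (iPSM) counts, the opposite direction, and the iPSM control is the library that stood apart. Epidermal markers summed to 58.6 to 116 CPM in ESC and 9.29 to 15.8 CPM in iPSM. Only 2 of the 8 markers had a mean of at least 1 CPM in ESC, and 1 in iPSM. The part of these markers in the lipoxygenase levels was not tested.

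The genes upstream of Per1 spanned a wide range of levels. Aurkb, the kinase of the chromosomal passenger complex in mitosis, led the order in ESC (15.5 ± 1.14 RPKM) and iPSM (7.77 ± 0.656 RPKM), and Pfas, an enzyme of purine synthesis, came next (11.3 ± 1.08 and 7.20 ± 0.217 RPKM; SD, n = 4). In ESC the ranges of these neighbours did not overlap, while in iPSM they did (6.94 to 8.52 and 6.87 to 7.33 RPKM). Hes7 came after them in iPSM, and its range of 2.13 to 5.43 RPKM overlapped those of Borcs6 (lysosome positioning, 3.29 to 4.58), Tmem107 (ciliary transition zone, 2.32 to 3.47) and Ctc1 (telomere replication, 2.26 to 3.08 RPKM). In ESC, Borcs6 (4.79 ± 1.80 RPKM) and Tmem107 (3.87 ± 0.416) overlapped, and Ctc1 followed at 1.39 ± 0.169 RPKM. Vamp2, a SNARE protein of synaptic vesicles, stood at 0.391 ± 0.0345 RPKM in ESC and 1.18 ± 0.186 RPKM in iPSM.

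All 10 members passed the test between untreated iPSM and untreated ESC, 3 higher in iPSM (Hes7, Vamp2 and Ctc1) and 7 lower, where 60.0% of all 26689 transcripts tested passed, 31.3% higher and 28.8% lower. Log2 differences were 1.39 for Vamp2, 0.77 for Ctc1, -0.61 for Tmem107, -0.50 for Borcs6, -1.19 for Aurkb and -0.84 for Pfas. Leaving out 1 clone at a time kept 7 to 10 members past the threshold. The calls lost in that way were those of Alox12b (ESC clones 1 and 6, iPSM clones 7, 19 and 20), Borcs6 (ESC clones 6 and 7, iPSM clones 7, 12 and 19), Alox8 (ESC clone 6) and Tmem107 (iPSM clone 7). Their values then were -2.43 to -3.60, -0.26 to -0.54, -1.85 and -0.49. Snord118, a small nucleolar RNA gene that begins just beyond the end of Tmem107 and shares no bases with it, held counts equal to 17.0% of those of Tmem107 in ESC and to 7.99% in iPSM; its part in the Tmem107 difference was not tested. Per1 itself did not pass (0.56 ± 0.270, edgeR adjusted p = 0.0869), but it passed with no filter on low counts (0.49, edgeR adjusted p = 0.0406) and without ESC clone 1 (0.79, edgeR adjusted p = 0.0338).

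**Figure D1:**
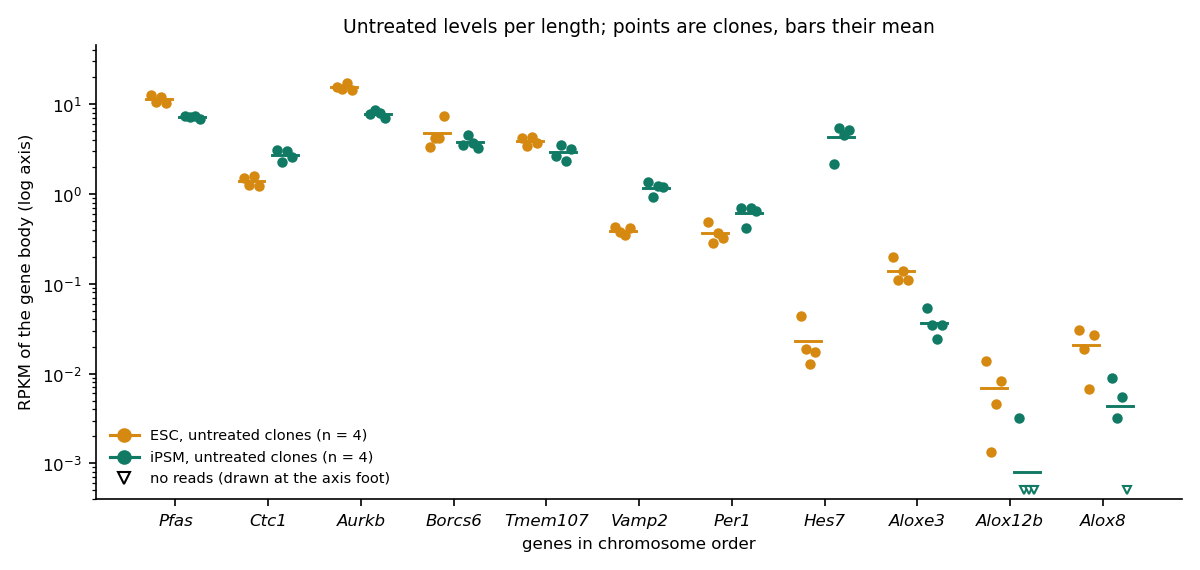
Untreated levels of the 10 members and Per1 in RPKM of the gene body (log axis), genes in chromosome order; points are the 4 untreated transgene clones of ESC (orange) and iPSM (green) and bars their mean. Hes7 moves from 0.0231 RPKM in ESC to 4.33 RPKM in iPSM, while Aloxe3 next to it moves from 0.138 down to 0.0368 RPKM.

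When Clock/Bmal1 was induced in iPSM for 2 hours, Aloxe3 rose about as much as Per1. Hes7, which lies between them, was higher in both clones by less, and the 6 members upstream of Per1 moved little. Aloxe3 went from 1.22 to 4.77 CPM in clone 12 (60.5 to 198 counts) and from 0.884 to 10.1 CPM in clone 20 (37 to 474 counts). Both dox libraries lay above both untreated ones, and above the 0.562 to 1.21 CPM of all the other iPSM libraries outside this group. The log2 fold change was 2.82 ± 0.411 (7.04-fold, edgeR adjusted p = 0.00627). Without the dox library of clone 20 it was 2.17 and no longer passed (edgeR adjusted p = 0.0747).

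Per1 went from 7.70 to 40.0 CPM in clone 12 and from 5.02 to 52.2 CPM in clone 20, a log2 fold change of 2.86 ± 0.248 (edgeR adjusted p = 0.000257). The order of the clones was the same for both genes: clone 20 began lower and ended higher. Per length the 2 genes remained far apart, with Per1 at 3.59 and 4.57 RPKM and Aloxe3 at 0.203 and 0.420 RPKM after dox. 

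Hes7 went from 7.70 to 22.8 CPM in clone 12 (2.96-fold) and from 21.4 to 33.0 CPM in clone 20 (1.54-fold). The groups did not overlap, but the dox library of clone 12 was only just above the untreated library of clone 20. The control line without transgene went from 24.9 to 31.0 CPM (1.24-fold, 1 library each), which is above the treated clone 12. The log2 fold change over both clones was 0.94 ± 0.375 (1.92-fold) and did not pass (edgeR adjusted p = 0.691). Same-numbered libraries are the same clone, and with clone as a replicate block the estimate was 1.08 ± 0.212 and passed (edgeR adjusted p = 0.0159), in a fit that called 1.51% of transcripts and 2 of 10 members. The value rested on the untreated libraries: it was 1.86 without untreated clone 20 (edgeR adjusted p = 0.00428) and 0.38 without untreated clone 12 (edgeR adjusted p = 0.43). Summed presomitic markers went from 1098 to 967 CPM in clone 12 and from 1497 to 1138 CPM in clone 20. This was the opposite direction to Hes7. The sum also fell in Clock/Bmal1DN clones 7 (1557 to 1375 CPM) and 19 (1656 to 1615 CPM). It rose in the control line (1642 to 1835 CPM). The part of these markers in the Hes7 result was not tested.

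The remaining lipoxygenase genes stayed near the floor. Alox12b held 2 counts before and 2 after dox in clone 12, and 0 and then 11 in clone 20, so its ratio of 6.69 (exact 95% counting interval 1.52 to 61.1) came from 1 library. The untreated control library, with its wide spread of reads, also held 11 counts. Alox8 held 6 and 2 counts without and 6 and 9 with dox, a ratio of 1.93 (interval 0.768 to 5.26). Neither gene passed the test.

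Upstream of Per1 the 6 members gave log2 fold changes between -0.07 and 0.13, each with an edgeR adjusted p of 1.00. Vamp2, the nearest of them, went from 5.28 to 5.25 CPM in clone 12 and from 3.89 to 4.81 CPM in clone 20. Ctc1, with the E-box shown above, went from 62.3 to 59.7 CPM and from 49.8 to 49.3 CPM. The standard errors of these 6 estimates were 0.124 to 0.244. In all, 1 of 10 members passed, in the upward direction, where 1.02% of 24805 transcripts passed and 0.996% passed upward. The members' median log2 fold change was 0.09, beside -0.02 over all transcripts tested. Groups did not overlap in CPM for 4 members, all higher with dox (Hes7, Aloxe3, Alox12b and Alox8), where 13.0% of all transcripts were higher without overlap. For Alox12b and Alox8 this rested on the scaling of few counts. Clone 12 held 2 counts of Alox12b and 6 of Alox8 both without and with dox, so their groups touched in raw counts.

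**Figure D2:**
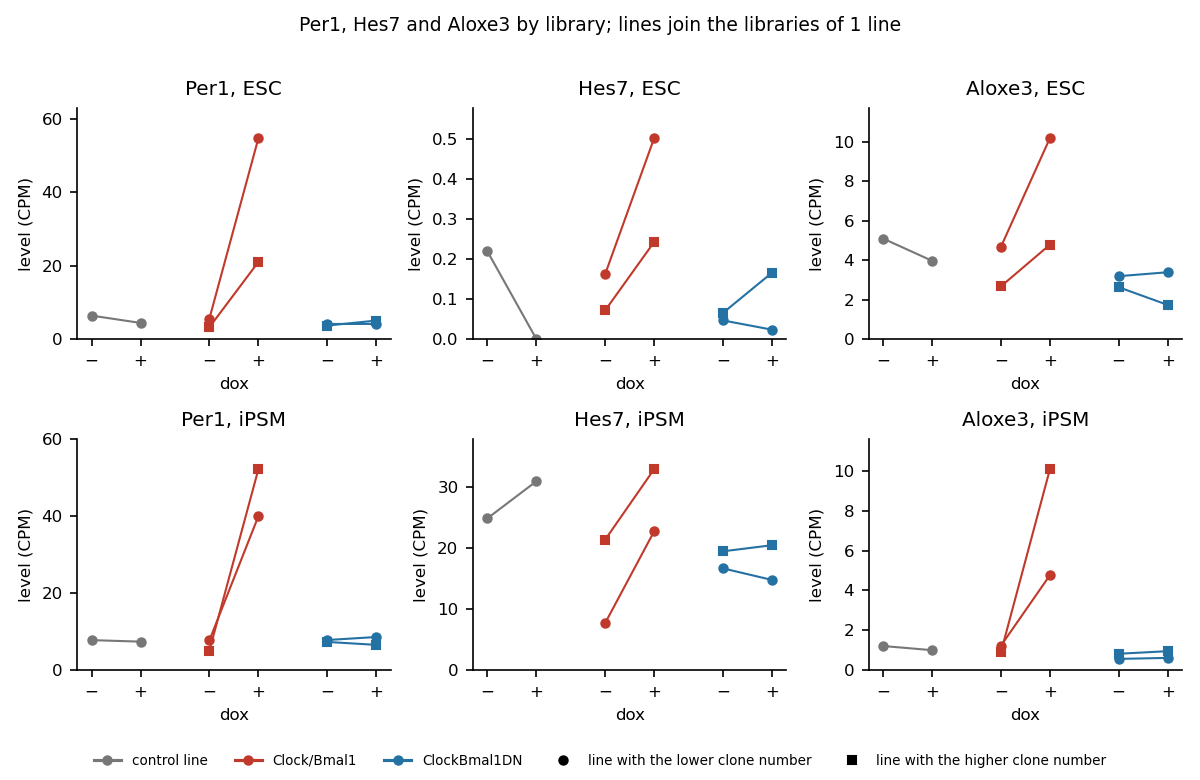
Levels of Per1, Hes7 and Aloxe3 in CPM in each library without (−) and with (+) dox; lines join the 2 libraries of a line, red for Clock/Bmal1, blue for Clock/Bmal1DN and grey for the control line, with a vertical scale of its own in each panel. In iPSM, Per1 and Aloxe3 climb steeply in both red lines, to 40.0 and 52.2 CPM and to 4.77 and 10.1 CPM, while Hes7 climbs less from starting levels of 7.70 and 21.4 CPM.

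Clock/Bmal1DN was the comparison construct in iPSM, but its induction was smaller. After dox, clones 7 and 19 held 888 and 153 CPM of Arntl, against 3215 and 4701 CPM in Clock/Bmal1 clones 12 and 20. Clock stood at 1023 and 1057 CPM against 1749 and 2468 CPM. The kind of construct and the amount induced thus cannot be told apart here. With Clock/Bmal1DN no member passed (0 of 10 in edgeR, where 0.00403% of transcripts passed). The count was also 0 in DESeq2 and 0 with an unadjusted p under 0.05. Hes7 went from 16.7 to 14.8 CPM in clone 7 and from 19.5 to 20.5 CPM in clone 19. Aloxe3 went from 0.562 to 0.613 CPM and from 0.821 to 0.950 CPM. Their log2 fold changes were -0.04 ± 0.373 and 0.16 ± 0.443, and that of Per1 was 0.00 ± 0.238. Borcs6 was the single member whose groups did not overlap, lower with dox (6.99 to 6.11 and 6.28 to 5.98 CPM), where 12.3% of all transcripts were lower without overlap.

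The difference between the 2 constructs' dox effects was tested directly. For Aloxe3 it was 2.65 ± 0.599 on the log2 scale and did not pass (edgeR adjusted p = 0.184); it was 2.55 with clone as a block (edgeR adjusted p = 0.0543) and passed in DESeq2 (2.66, adjusted p = 0.0173) and with no filter on low counts (2.66, edgeR adjusted p = 0.000121). Without the dox library of Clock/Bmal1 clone 12 it was 3.09 and passed (edgeR adjusted p = 0.0394). For Hes7 it was 0.98 ± 0.529 (edgeR adjusted p = 1.00), and 1.90 without untreated clone 20 (edgeR adjusted p = 0.0257). For Per1 it was 2.85 ± 0.339 and passed (edgeR adjusted p = 0.00600), though not without the dox library of Clock/Bmal1DN clone 19 (2.67, edgeR adjusted p = 0.0683). No member passed in this contrast in edgeR, where 0.278% of transcripts did, against 1 member in DESeq2 and 1 with an unadjusted p under 0.05. Both Clock/Bmal1DN clones held less Arntl and Clock after dox than the Clock/Bmal1 clones, and in clone 19 Arntl reached only 153 CPM.

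**Figure D3:**
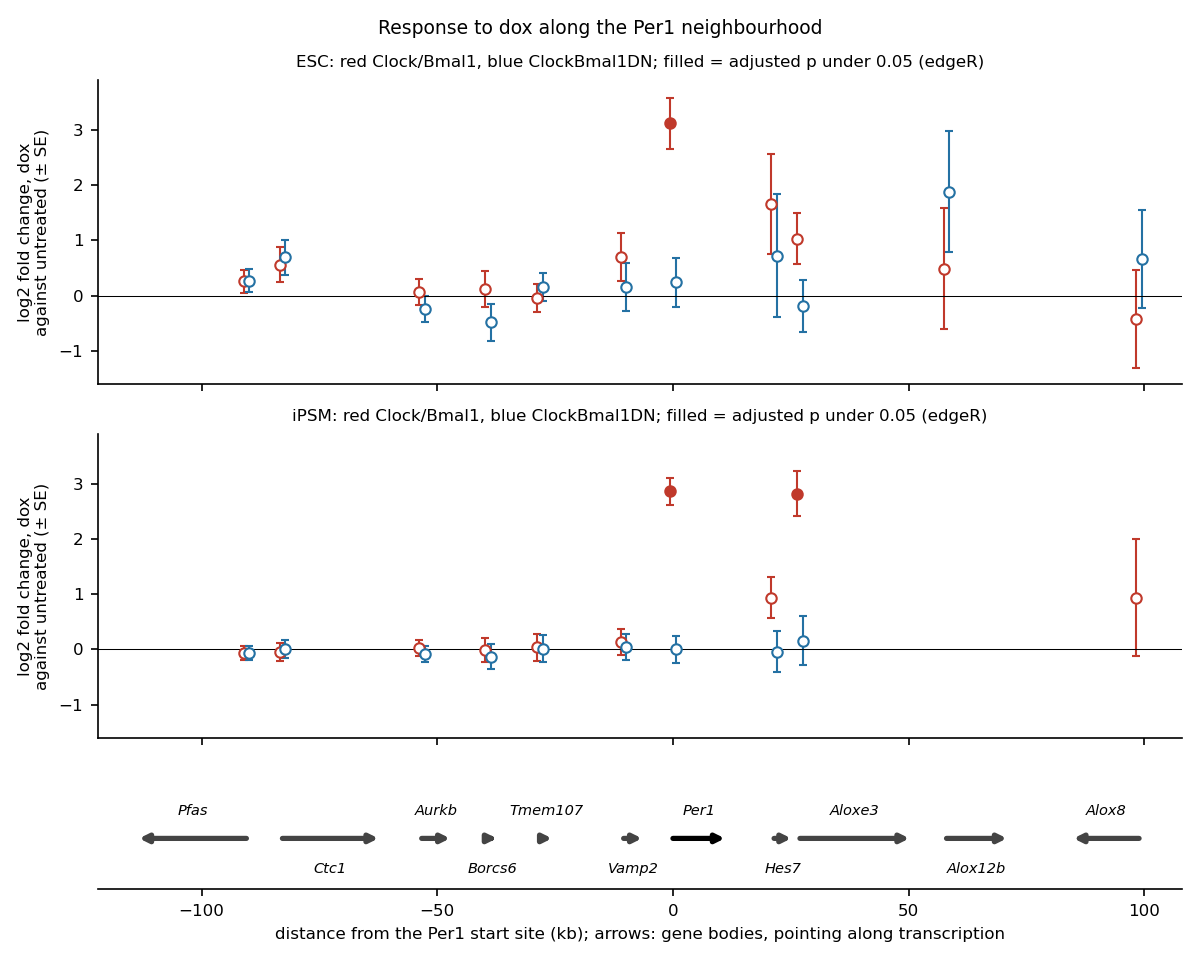
Log2 fold change with dox (± SE, edgeR, 2 clones per group) against the distance of each gene's start site from that of Per1 in kb, in ESC (top) and iPSM (middle); red is Clock/Bmal1, blue Clock/Bmal1DN, filled points passed at an adjusted p of 0.05, and arrows show the gene bodies. In iPSM the red points of Per1 (2.86) and Aloxe3 (2.82) stand high, Hes7 between them is at 0.94, and the 6 genes to the left lie between -0.07 and 0.13; Alox12b in iPSM and Alox8 in iPSM with Clock/Bmal1DN are not drawn because they held few counts.

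In ESC, 6 hours of Clock/Bmal1 raised Per1 from 5.51 to 54.7 CPM in clone 1 and from 3.20 to 21.0 CPM in clone 7 (log2 fold change 3.12 ± 0.463, edgeR adjusted p = 0.0273). That call was lost without untreated clone 1 (3.56, edgeR adjusted p = 0.118), dox clone 1 (2.27, 0.106) or untreated clone 7 (2.78, 0.244). No member passed beside it: 0 of 10 in edgeR, where 0.422% of 22500 transcripts passed, 0 in DESeq2 and 0 with an unadjusted p under 0.05.

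Aloxe3 went from 4.67 to 10.2 CPM in ESC clone 1 (2.18-fold) and from 2.67 to 4.79 CPM in clone 7 (1.80-fold). The control line went from 5.10 to 3.97 CPM, so the untreated control was above the treated clone 7. The log2 fold change was 1.03 ± 0.465 (edgeR adjusted p = 0.670). Hes7 remained near the floor, with 9 to 22 counts in clone 1 and 4 to 10.5 counts in clone 7, and with 10 and 0 counts in the control line. The Hes7 count ratio in the Clock/Bmal1 clones was 3.23 (exact 95% counting interval 1.65 to 6.71), an interval for counting error alone, and the log2 fold change was 1.66 ± 0.903 (edgeR adjusted p = 0.705).

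Groups did not overlap for 5 members in ESC, all higher with Clock/Bmal1 (Hes7, Aloxe3, Vamp2, Ctc1 and Pfas), where 18.9% of all transcripts were higher without overlap. Vamp2 went from 1.69 to 3.38 CPM in clone 1 and from 1.50 to 1.82 CPM in clone 7. Ctc1 went from 31.4 to 38.5 CPM and from 26.7 to 47.4 CPM. The untreated control line had 2.84 CPM of Vamp2 and 38.7 CPM of Ctc1, both within the range of the treated clones. Their log2 fold changes of 0.70 ± 0.431 and 0.56 ± 0.312 did not pass. Pfas went from 291 to 329 CPM in clone 1 and from 249 to 317 CPM in clone 7. The untreated control line, at 341 CPM of Pfas, was above both treated clones. The members' median log2 fold change was 0.37, beside -0.01 over all transcripts tested. With Clock/Bmal1DN in ESC it was 0.21, beside -0.01. For the difference between constructs it was 0.15, beside 0.00, with 5 members above 0 and 5 below.

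With Clock/Bmal1DN in ESC, 0 of 10 members passed in edgeR (background 0.00444%), 0 in DESeq2 and 0 with an unadjusted p under 0.05, and several members differed between the 2 clones. In clone 6, Ctc1 went from 26.1 to 62.7 CPM, Pfas from 242 to 369 CPM, Borcs6 from 14.4 to 6.78 CPM and Aurkb from 89.7 to 61.0 CPM. In clone 5 the same 4 genes went from 32.1 to 30.9, from 272 to 249, from 7.88 to 9.21 and from 103 to 101 CPM. Ctc1, Pfas and Borcs6 thus went in opposite directions in the 2 clones, while Aurkb was lower with dox in both. Clone 6 had the highest Ctc1 and Pfas of the 10 ESC libraries with dox and the highest Borcs6 without. Summed over 8 fibroblast markers, its untreated library stood at 414 CPM and its dox library at 55.4 CPM, beside 46.6 to 213 CPM in the other ESC libraries; their part in these values was not tested. Aloxe3 (3.19 to 3.39 and 2.63 to 1.73 CPM) and Hes7 (2 to 1 and 3 to 7 counts) also moved in opposite directions in the 2 clones. Alox12b was the single member without overlap, higher with dox (2.5 to 9 and 5 to 16 counts), where 14.5% of transcripts were; the untreated control line held 15 counts.

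The difference between constructs in ESC was passed by 0 of 10 members in edgeR, where 0.0578% of transcripts passed, with 0 in DESeq2 and 0 with an unadjusted p under 0.05. It was 1.22 ± 0.661 for Aloxe3 (edgeR adjusted p = 0.995). For Per1 it was 2.88 ± 0.625 (edgeR adjusted p = 0.300) and passed with clone as a block (2.78, edgeR adjusted p = 0.0419), with no filter on low counts (2.88, 4.94e-07) and in DESeq2 (2.91, adjusted p = 0.000338). Set against each other, the Clock/Bmal1 effects in iPSM minus ESC differed by 1.74 ± 0.659 for Aloxe3 and by -0.78 ± 0.819 for Hes7, both with an edgeR adjusted p of 1.00. In that contrast edgeR called 0 transcripts (0%), while DESeq2 called 15 and 1074 had an unadjusted p under 0.05, and dose and time differ between its arms.

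**Figure D4:**
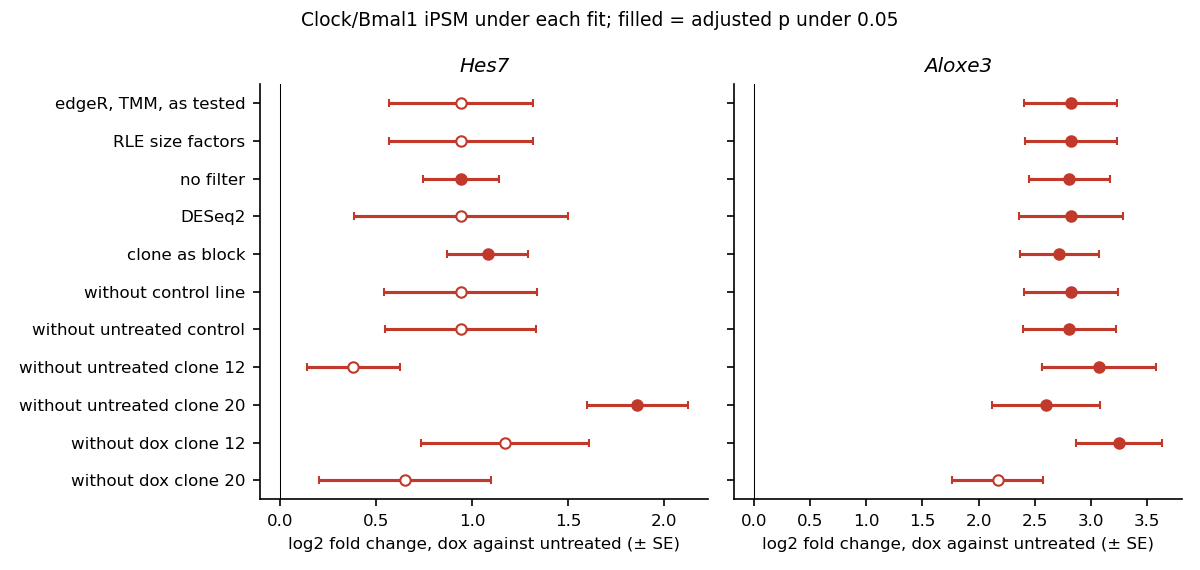
Log2 fold change with dox (± SE) of Hes7 (left) and Aloxe3 (right) in Clock/Bmal1 iPSM under each fit; filled points passed at an adjusted p of 0.05. Aloxe3 lies between 2.17 and 3.25 and passes except without the dox library of clone 20, while Hes7 lies between 0.38 and 1.86 and passes with clone as a block, with no filter on low counts and without untreated clone 20.

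The other transcripts of the region did not pass. Of 38 other transcripts within 500 kb of Per1, 26 were tested in each cell type and 0 passed in any dox contrast in edgeR or DESeq2. With Clock/Bmal1, 4 in ESC and 2 in iPSM had an unadjusted p under 0.05, and the lowest edgeR adjusted p was 0.488 in ESC and 0.502 in iPSM. Among 19 circadian E-box targets, 11 rose in ESC and 12 in iPSM with Clock/Bmal1 (edgeR, median log2 fold changes 2.51 and 1.46), where 0.422% and 1.02% of all transcripts passed; DESeq2 called 14 and 13. The ESC count was 3 without untreated clone 1, 3 without untreated clone 7 and 5 without dox clone 1, and the iPSM count 10 to 13 with 1 library left out. With Clock/Bmal1DN 0 passed (5 in ESC and 0 in iPSM with an unadjusted p under 0.05, 1 and 0 in DESeq2). In iPSM the largest were Bhlhe41 (5.30) and Hlf (5.30), Ciart (4.60) and Nr1d1 (4.43), all above Per1 and Aloxe3.

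In the segmentation clock and Notch list, which holds Hes7, 3 of 30 genes rose in iPSM with Clock/Bmal1 and none fell in the edgeR test, where 1.02% of all transcripts passed. DESeq2 called 5 (4 higher, 1 lower), clone as a replicate block gave 8 (6 higher, 2 lower), and 13 had an unadjusted p under 0.05. With no filter on low counts 12 passed (7 higher, 5 lower), and with 1 library left out 1 (without dox clone 20) to 7 (without untreated clone 20). The 3 that rose were Ripply2, a factor of the somite boundary (5.01 ± 0.737, edgeR adjusted p = 0.00667), Hes1, a Notch effector (2.58 ± 0.249, 0.000543), and Lfng, the fringe enzyme that modifies Notch (2.35 ± 0.432, 0.0253). The list's median was 0.02, beside -0.02 over all transcripts. Without the dox library of clone 20 the calls of Ripply2 (edgeR adjusted p = 0.121) and Lfng (1.73, 0.282) were lost, as was that of Aloxe3. In ESC 1 of 26 tested genes rose (Lfng, 2.81 ± 0.242, edgeR adjusted p = 0.00298), where 0.422% of all transcripts passed; 2 passed in DESeq2, 3 with no filter and 8 had an unadjusted p under 0.05. Lfng missed the threshold without untreated clone 1 (0.0501) or untreated clone 7 (0.0513). With Clock/Bmal1DN 0 passed in either cell type in edgeR or DESeq2, and 0 had an unadjusted p under 0.05.

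Across the 10 iPSM libraries, the genes whose log2 CPM was most like that of Hes7 among 15435 genes with a mean of at least 1 CPM were Tmem181b-ps (Pearson r = 0.918), Lfng (0.898), Hey2 (0.895), Pus7l (0.892) and Rnf39 (0.887). These libraries share clones and dox, and the values are a description. Lfng went from 7.91 to 47.3 CPM in clone 12 and from 20.7 to 98.0 CPM in clone 20, so for Lfng too clone 12 was the low one without dox. The same measure was 0.432 for Aloxe3, 0.376 for Per1, 0.371 for Tmem107, 0.260 for Borcs6 and 0.220 for Aurkb. It was -0.0593 for Pfas, -0.555 for Vamp2 and -0.787 for Ctc1. Without the untreated control library it was 0.448 for Aloxe3, 0.412 for Per1, 0.552 for Tmem107, 0.410 for Borcs6 and 0.435 for Aurkb. For Pfas, Vamp2 and Ctc1 it was then -0.0237, -0.537 and -0.777.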

How the data were processed

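Stranded total RNA libraries were read as paired ends, per the labels' protocols. The submitters' processing notes name bcl2fastq, STAR 2.7.2a, HOMER and mm10. The deposited tables hold, per the file headers, read counts and RPKM over gene bodies; 18.1% of the deposited counts end in 0.5, and these estimated counts were rounded for tests. The deposited RPKM were recomputed from counts within 1% plus 0.001 for 100% of values. Counts were tested with edgeR 4.0.16 (R 4.3.3; TMM, filterByExpr, quasi-likelihood F test, two-sided, Benjamini-Hochberg over all transcripts, threshold 0.05) with 6 groups in each cell type (10 libraries, 4 residual degrees of freedom), or 12 groups in the 20 libraries for comparisons across cell types. The code was tested on simulated data. Alternatives were RLE size factors, no filter, DESeq2 1.42.0, clone as replicate block, no control line, and each library of the compared groups left out. Leaving out the untreated iPSM control was added after seeing the data. A replicate number names a clone, so numbers pair libraries by design; deviations of the 2 clones' libraries correlated at r = 0.662 and -0.0964 (ESC Clock/Bmal1, Clock/Bmal1DN) and 0.309 and 0.335 (iPSM). Members, lists and rules for named genes (all members, list genes that passed up to 4 per contrast by fold size, passing neighbours within 500 kb, the 5 genes most like Hes7) were chosen with earlier results of these data known. CPM and count ratios use TMM factors set within each cell type, while the edgeR fits across cell types set them over all 20 libraries. Counting intervals cover counting error only. Pfas overlaps Mir3062 on its strand and Gm25819 on the other, and Borcs6 an opposite-strand transcript.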

Additional observations from a re-analysis of the deposited data

Results flagged for a closer look

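The dox effects on Per1 differed between the 2 constructs in iPSM, by a test of the difference itself. The Clock/Bmal1 effect exceeded the Clock/Bmal1DN effect by 2.85 on the log2 scale (SE 0.339, edgeR adjusted p = 0.00600), from 2.86 and 0.00. No member of the neighbourhood met this condition in edgeR as tested. Aloxe3 differed by 2.65 (SE 0.599) and passed in DESeq2 (adjusted p = 0.0173) and with no filter on low counts (edgeR adjusted p = 0.000121). The Per1 call was not kept in every fit with 1 library left out, as given above. After dox the iPSM Clock/Bmal1DN clones also held less Arntl and Clock than the Clock/Bmal1 clones. The groups hold 1 or 2 libraries, so no single library could be screened as an outlier within its group.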

How the results depend on the processing

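Members called with Clock/Bmal1 in iPSM, and in the iPSM difference, moved with the processing. Counts of transcripts past the threshold moved in both cell types. With no filter on low counts they were 537, 463 and 410 in ESC (Clock/Bmal1, Clock/Bmal1DN and their difference), 597, 8 and 280 in iPSM, and 87 for iPSM minus ESC. DESeq2 gave 351, 5 and 130 in ESC, 155 for the iPSM difference and 15 for iPSM minus ESC. With clone as a replicate block there were 158 (Clock/Bmal1) and 25 (difference) in ESC, 132 for the iPSM difference and 2 for iPSM minus ESC; the block changed no member's call other than that of Hes7 in iPSM. Members called in iPSM with Clock/Bmal1 were 2 with no filter and 2 with the block, and in the iPSM difference 1 with no filter and 1 in DESeq2. With 1 library left out the counts ranged over 7 to 90, 0 to 2 and 0 to 8 in ESC, over 83 to 678, 1 to 2 and 16 to 167 in iPSM, 0 to 0 for iPSM minus ESC and 14447 to 16069 for the untreated contrast. The 678 came without untreated clone 12 and the 83 without dox clone 20. Members called ranged over 0 to 2 (iPSM Clock/Bmal1), 0 to 1 (iPSM difference) and 7 to 10 (untreated), and were 0 to 0 in the other contrasts. Where an arm then holds 1 library, it is assumed to vary like the other groups. No called value turned its direction under the alternatives run. Of 1437 estimates for named genes under the alternatives, 99 changed sign while passing in neither fit, 21 of them by more than 1 SE. Depth limits Hes7 in ESC and Alox12b and Alox8 in both cell types, which rest on few counts.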
